A study of Mus musculus with 7 samples.

Results

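Hemgn and Slc52a3 are 2 genes of 55367 symbols measured in differentiating G1E-ER4 cells. They were chosen by their levels in cells differentiated with a metal chelator and in control cells, for a near loss with the chelator, so those levels describe the choice and carry no test. The control libraries entered the choice, and no p is given for either gene in any comparison. The cells are mouse erythroid progenitors without a working Gata1 gene of their own, into which a GATA1 protein joined to part of the estrogen receptor was introduced. Estradiol switches this protein on and starts maturation. All groups are cultures of this 1 line, a single subclone, kept with erythropoietin and Kit ligand. The 3 libraries called 24 h DTPA came from cells given 100 nM β-estradiol and 50 µM DTPA together and harvested 24 h later. DTPA chelates zinc strongly and also binds other metals. The 3 libraries called 24 h control had the estradiol without DTPA, and the single library called 0 h came from undifferentiated cells with neither and has no replicate. The labels call the replicates biological.

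Hemgn encodes hemogen, a nuclear protein of hematopoietic cells that is reported to bring the acetyltransferase p300 to GATA1 and whose gene is a reported target of GATA1 and HOXB4. Slc52a3 encodes a riboflavin transporter of the plasma membrane. Riboflavin, vitamin B2, is taken up by Slc52 carriers, phosphorylated by riboflavin kinase to FMN and adenylated by FAD synthase to FAD, and both cofactors are held by redox enzymes of mitochondria and cytosol.

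Values are TPM, reads per length of gene set to a fixed total in every library, so that levels of different genes can be compared. From the steps between low TPM values and the exon lengths of GENCODE M21, the libraries held an estimated 19.8 to 21.2 M reads in genes with DTPA, 17.7 to 18.6 M in controls and 17.6 M at 0 h. Erythroid identity was checked with 7 markers. Their summed level was 15019 to 16605 TPM with DTPA, 17739 to 20407 TPM in controls and 3634 TPM at 0 h. Hba-a1 alone averaged 11125 TPM with DTPA, 13951 TPM in controls and 2488 TPM at 0 h, so the sum mostly follows it. Single markers went both ways at 24 h, Slc4a1 being lower and Alas2 higher with DTPA. The 8 megakaryocyte markers, of which Gp1bb, Ppbp and Vwf were listed at 0 throughout, summed to 42.4 to 51.5 TPM with DTPA, 9.08 to 12.7 TPM in controls and 39.5 TPM at 0 h. Gp1ba, the highest of them in every group, stood at 26.5 TPM with DTPA, 7.17 TPM in controls and 24.2 TPM at 0 h. In the same order Itgb3 stood at 15.3, 2.18 and 3.3 TPM and Gp9 at 3.11, 1.01 and 1.34 TPM. Pf4 stood at 0.93, 0.08 and 5.87 TPM and Itga2b at 0.95, 0.67 and 4.75 TPM. The part of the megakaryocyte markers in the results was not tested. Myeloid and mast cell, lymphoid and stromal markers summed to at most 2.79, 2.82 and 0 TPM with DTPA, 3.19, 1.06 and 0.06 TPM in controls and 14.4, 0.21 and 0.19 TPM at 0 h. In these bulk samples fewer cells of a type and less RNA per cell cannot be told apart.

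Hemgn (ENSMUSG00000028332.13) spans bases 46393989 to 46413506 of chromosome 4, minus strand, in GRCm38, the assembly called mm10, with 2511 bp of exon. Slc52a3 (ENSMUSG00000027463.14) spans bases 151996511 to 152009258 of chromosome 2, plus strand, with 2767 bp of exon. Both are protein-coding, and neither shares exon bases with another annotated gene. Of the 2 genes, 1 had an entry in the RefSeq promoter table, Hemgn. Its promoter window is shown because the cells differentiate through GATA1. It runs from 250 bases before to 50 bases after the RefSeq start, at chr4:46404134-46404433 on the minus strand (GRCm38.p6), and capitals mark words of the GATA motif. This start lies within the GENCODE span of the gene, which has 2 annotated first exons that TPM per gene cannot separate.

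Hemgn: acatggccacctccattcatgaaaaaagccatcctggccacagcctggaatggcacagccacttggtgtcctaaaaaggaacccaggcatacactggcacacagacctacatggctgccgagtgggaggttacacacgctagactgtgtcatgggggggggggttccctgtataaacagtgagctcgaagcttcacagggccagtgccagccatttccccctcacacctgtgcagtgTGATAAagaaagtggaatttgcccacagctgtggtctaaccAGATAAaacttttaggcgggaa

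The GATA motif was searched as AGATAA, as TGATAA, as AGATAG and as TGATAG on both strands. The Hemgn window held 2 matches on the sense strand, TGATAA beginning 13 bases before the start and AGATAA beginning 28 bases after it. At least 1 such word stood in 29.8% and at least 2 in 7.77% of 32851 promoter windows of 300 bases. The CACCC box bound by KLF factors, searched as CCNCNCCC on both strands, matched in 4 overlapping registers of a single run of C on the antisense strand, and 49.5% of windows held a match. The core of the metal response element bound by MTF1, searched as TGCACNC and TGCGCNC, had 0 matches in the Hemgn window and at least 1 in 25.7% of windows. These matches describe letters in the window and show no binding.

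Hemgn was highest before differentiation, lower in differentiated controls and lower still with DTPA. It stood at 1.71, 1.99 and 1.33 TPM in the 24 h DTPA libraries, at 32.82, 30.32 and 34.34 TPM in the 24 h control libraries and at 136.33 TPM at 0 h. All DTPA libraries lay below all control libraries, and all control libraries lay below the 0 h library. The mean was 1.68 ± 0.331 TPM with DTPA and 32.5 ± 2.03 TPM in controls (SD, n = 3 each), so that DTPA cells held 5.16% of the control level and 1.23% of the 0 h level. Control cells held 23.8% of the 0 h level. On the log2(TPM + 1) scale used here, which understates changes of low genes, the difference of DTPA minus control was -3.65, and that of control minus 0 h was -2.04.

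Slc52a3 was also low with DTPA, above Hemgn there in every library, and unlike Hemgn it was listed at 0 before differentiation. Its values were 2.70, 2.44 and 2.46 TPM in the 24 h DTPA libraries, 40.31, 35.32 and 36.29 TPM in the 24 h control libraries and 0 TPM at 0 h. The DTPA libraries again lay below every control library, but they lay above the 0 h library, where Hemgn lay below it. The mean was 2.53 ± 0.145 TPM with DTPA and 37.3 ± 2.65 TPM in controls (SD, n = 3 each), and DTPA cells held 6.79% of the control level. The difference of DTPA minus control was -3.44 on the log2(TPM + 1) scale. No fold is given against 0 h, where the gene was listed at 0.

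**Figure D1:**
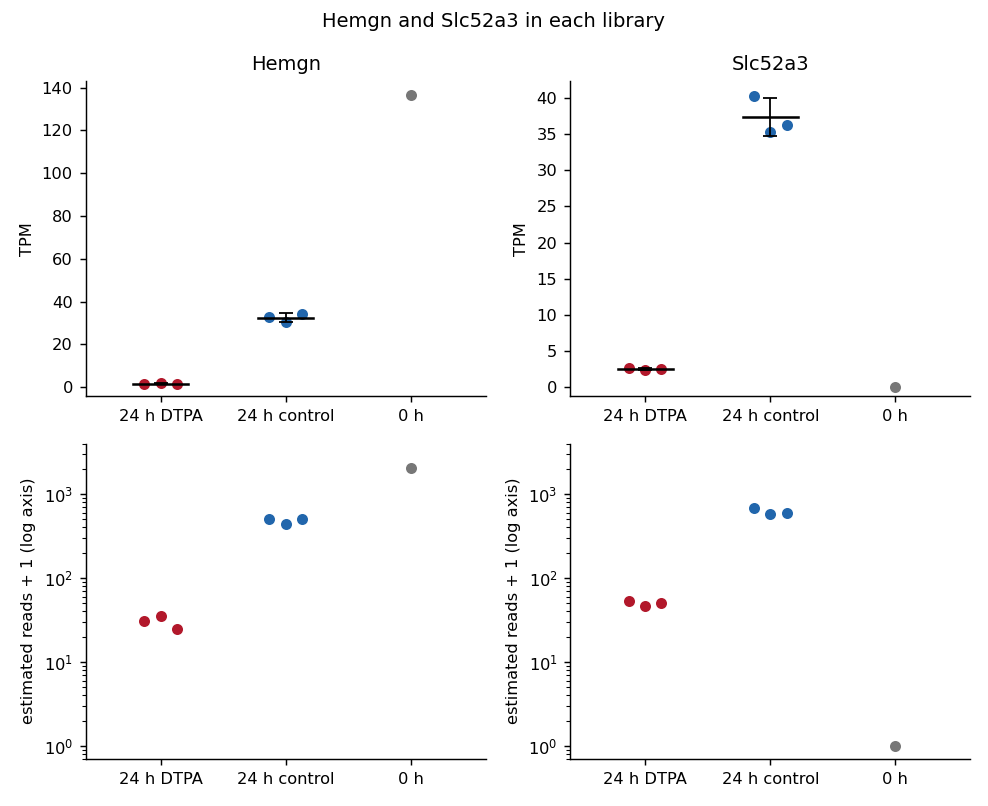
TPM (top) and estimated reads plus 1 on a log axis (bottom) of Hemgn (left) and Slc52a3 (right), 1 point per library, with the mean and SD of the 3 libraries at 24 h in the top panels. With DTPA both genes lie at 1.33 to 2.70 TPM, in controls at 30.32 to 40.31 TPM, and at 0 h Hemgn stands at 136.33 TPM and Slc52a3 at 0 TPM.

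The low values rest on few but countable reads. Hemgn had an estimated 30, 34 and 24 reads in the DTPA libraries, 501, 444 and 504 in the controls and 2023 at 0 h. For Slc52a3 the estimate was 52, 46 and 49 reads with DTPA, 678, 570 and 587 in controls and 0 at 0 h. In the 0 h library 3 reads of Slc52a3 would have been listed as 0.183 TPM, so a level below that is not separable from 0 at this depth. The coefficient of variation of Hemgn was 19.8% with DTPA, where counting error alone gives 18.5%, and 6.25% in controls, where counting gives 4.55%. For Slc52a3 it was 5.71% with DTPA against 14.3% from counting, and 7.09% in controls against 4.04% from counting. The spread between DTPA libraries was thus close to or below the counting error for both genes, and these figures cover counting error only.

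Set among all symbols of a library, Hemgn ranked 10022 to 10649 by TPM with DTPA, 4152 to 4413 in controls and 1286 at 0 h. Slc52a3 ranked 9541 to 9730 with DTPA and 3695 to 4008 in controls. In controls Slc52a3 was above Hemgn in each library, and their ranges did not overlap (30.32 to 34.34 against 35.32 to 40.31 TPM). Genes tested in DTPA against control whose higher group averaged 5 TPM or more numbered 8933. Among them Hemgn ranked 2 (-3.651) and Slc52a3 ranked 4 (-3.437) by size of fall on the log2(TPM + 1) scale. The pair was chosen for this fall, and both places are near ties with the gene next below. Between and beside them stood the zinc-binding metallothionein genes Mt2 (-7.66) and Mt1 (-3.648). The next after Slc52a3 was Cdc25c (-3.433), a phosphatase gene of mitotic entry.

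The genes whose pattern over the 7 libraries was most like each of the pair differed between them. Likeness is Pearson's r of log2(TPM + 1) among 2022 genes with group means at least 4-fold apart, given as a description without a p, since the libraries form 3 groups and r mostly follows the group means. Of the 8 genes most like Hemgn, with r of 0.998 to 0.999, 7 are described here, Gins2, Smc2, Fancd2, Hmgb2, Net1, Rrm2 and Aurkb. Gins2 is a subunit of the replicative helicase, Smc2 of condensin, Fancd2 acts in DNA repair, Rrm2 makes deoxynucleotides and Aurkb is a mitotic kinase. Aurkb averaged 2.99 ± 0.243 TPM with DTPA and 35.1 ± 1.98 TPM in controls, and stood at 122 TPM at 0 h, values near those of Hemgn in all 3 groups. Gins2 averaged 2 ± 0.0945 TPM with DTPA and 14.2 ± 0.426 TPM in controls, and stood at 37.4 TPM at 0 h. Smc2 averaged 12.9 ± 0.723 TPM with DTPA and 63.1 ± 5.64 TPM in controls, with 160.5 TPM at 0 h. Each of these 7 genes was lowest with DTPA and highest at 0 h, an order largely fixed by choosing them for likeness to Hemgn. Exons of Gins2 and Fancd2 overlap Gse1 and Fancd2os on the other strand by 2758 and 257 bp, and no source used here says whether the counting used strand.

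The 8 genes most like Slc52a3, with r of 0.991 to 0.999, were Creb3l3, Fgfbp3, Strip2, Igtp, Rgs11, Gm4316, Gypc and Arhgdig. Creb3l3 encodes a membrane-bound transcription factor known from liver, Igtp an interferon-inducible GTPase, Gypc the red cell membrane protein glycophorin C and Arhgdig an inhibitor of small GTPases. Creb3l3 was listed at 0 at 0 h like Slc52a3, and averaged 2.01 ± 0.0493 TPM with DTPA and 17.4 ± 0.32 TPM in controls. Fgfbp3 averaged 6.84 ± 0.74 TPM with DTPA and 34.2 ± 3.01 TPM in controls, with 3.06 TPM at 0 h. Gypc had 264 ± 6.87 TPM with DTPA, 588 ± 6.38 TPM in controls and 139 TPM at 0 h. All 8 peaked in the controls, which choosing them for likeness to Slc52a3 largely fixed. An r of at least 0.99 was reached by 86 genes for Hemgn and by 8 for Slc52a3. With r taken on TPM itself, 0 of the 8 genes most like Hemgn and 5 of the 8 for Slc52a3 were again among the top 8, so the Hemgn names depend on the log scale. By Spearman's rank correlation, 21 genes tied at 1 with Hemgn and 4 with Slc52a3. Rgs11 and Arhgdig share 138 bp of exon with each other on opposite strands, and Igtp shares 162 bp with Irgm2.

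**Figure D2:**
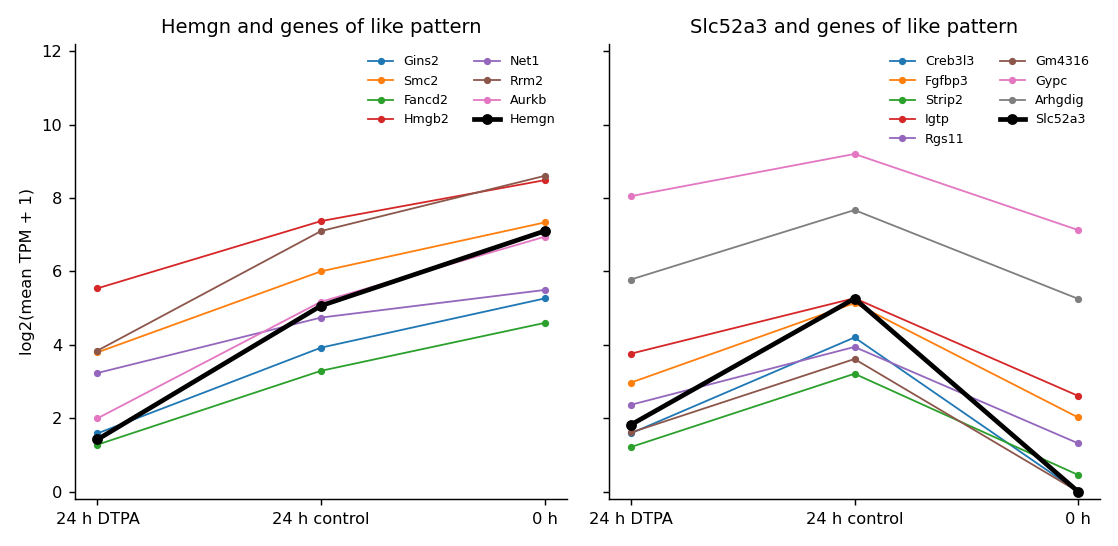
Group means as log2(mean TPM + 1) of Hemgn (left, black) and Slc52a3 (right, black) with 7 of the 8 genes of highest Pearson's r for Hemgn and all 8 for Slc52a3 (colours), for 24 h DTPA, 24 h control and 0 h. The Hemgn set climbs from 24 h DTPA to 0 h, as Hemgn does with means of 1.68, 32.5 and 136.33 TPM, while the Slc52a3 set peaks in the controls, as Slc52a3 does at 37.3 TPM. The coloured genes were chosen for this likeness.

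Among the genes that take up riboflavin and make its cofactors, none of the others differed between DTPA and control cells by as much as Slc52a3, which had been chosen for its difference. The other riboflavin carrier gene, Slc52a2, stood at 6.84, 5.66 and 6.10 TPM with DTPA, 6.82, 7.23 and 6.56 TPM in controls and 10.37 TPM at 0 h. Its groups at 24 h overlapped, and it did not pass in DTPA against control (log2 fold change -0.13, limma adjusted p = 0.256). Slc52a3 was thus the more abundant carrier transcript in controls, and Slc52a2 was the more abundant with DTPA and at 0 h. Rfk, riboflavin kinase, fell with DTPA to 50.60, 50.26 and 51.71 TPM, against 70.22, 71.33 and 70.19 TPM in controls, with 85.68 TPM at 0 h (log2 fold change -0.47, limma adjusted p = 3.5e-05). Flad1, FAD synthase, averaged 27.4 ± 1.62 TPM with DTPA and 24.4 ± 2.54 TPM in controls (SD, n = 3 each) and did not pass (0.17, limma adjusted p = 0.128). It passed as higher with median-of-ratios scaling (0.27, limma adjusted p = 0.0233) and with quantile normalization (0.30, limma adjusted p = 0.0147), and shares 1790 bp of exon with Lenep.

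Slc25a32, reported to carry FAD and folate into mitochondria, rose with DTPA to 4.45 ± 0.309 TPM, against 3.25 ± 0.454 TPM in controls (log2 fold change 0.37, limma adjusted p = 0.0304), and stood at 22.5 TPM at 0 h. The call was lost with no filter on low values (limma adjusted p = 0.0781), without control replicate 1 (limma adjusted p = 0.0955) and without DTPA replicate 1 (0.0553), 2 (0.104) or 3 (0.0612). Abcg2, an exporter with riboflavin among its substrates, had 42.1 ± 2.88 TPM with DTPA and 41.9 ± 1.88 TPM in controls (0.00, limma adjusted p = 0.972). Enpp1 was listed at 0 in all libraries. Enpp3, like Enpp1 a nucleotide pyrophosphatase, was at most 0.39 TPM at 24 h and 1.18 TPM in the single 0 h library. Its log2 fold change in control against 0 h, -1.10, became -0.30 with a pseudocount of 5 TPM. Of the 5 tested genes of the list beside Slc52a3, 1 rose, 1 fell and 3 did not pass, where 58.1% of all 11147 genes tested were called, 21.7% as higher and 36.4% as lower. In control against 0 h, where a call also needed a log2 fold change of at least 1 in size, 0 of 6 tested genes rose and 2 fell, Slc25a32 (-2.48) and Enpp3 (-1.10). There 39.4% of 11906 genes were called, 15.1% as higher and 24.3% as lower.

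**Figure D3:**
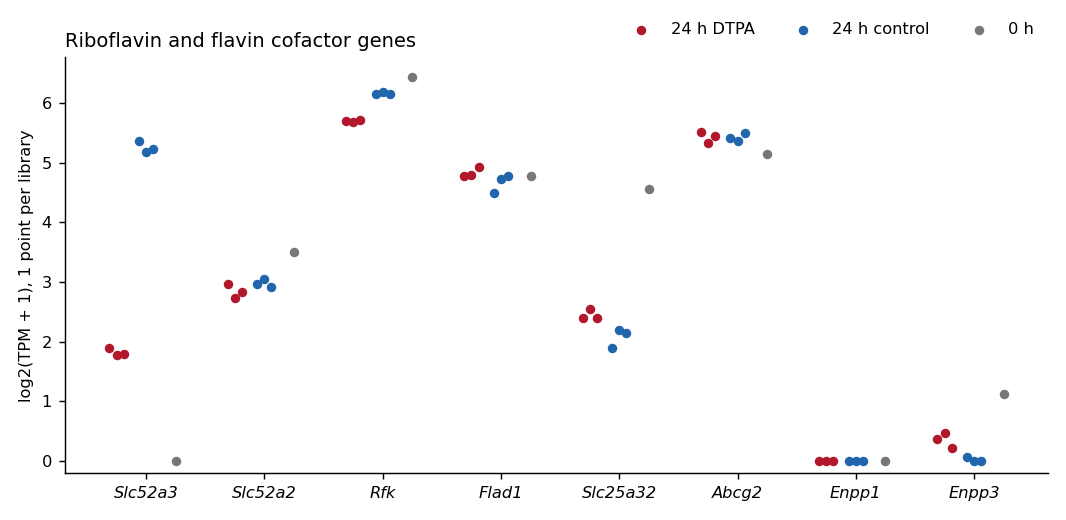
Levels as log2(TPM + 1) of the riboflavin and flavin cofactor genes, 1 point per library, for 24 h DTPA, 24 h control and 0 h. Slc52a3 spans 0 to 40.31 TPM over the groups, while Slc52a2 stays between 5.66 and 10.37 TPM.

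Flavoproteins, the enzymes that hold FAD or FMN, were more often lower than higher with DTPA, as were all genes tested (36.4% lower, 21.7% higher). Of 78 listed genes 64 were tested in DTPA against control, and 14 rose, 34 fell and 16 did not pass, with a median log2 fold change of -0.17 where that of all genes was -0.09. The share called was 75%, against 58.1% of all genes. The lower calls stayed more numerous with median-of-ratios scaling (17 rose, 28 fell) and with quantile normalization (18 rose, 26 fell). Nqo1, a quinone reductase, fell to 8.9 ± 1.55 TPM with DTPA, against 35.7 ± 2.66 TPM in controls, and Txnrd1, thioredoxin reductase, to 40.4 ± 1.14 against 115 ± 1.54 TPM (log2 fold changes -1.90 and -1.48; limma adjusted p = 8.86e-06 and 1.85e-07). Sqle, a flavoenzyme of cholesterol synthesis, fell by 1.20 on the log2 scale. Among the rises were Mical1, an actin-oxidising enzyme, at 13 ± 0.86 TPM with DTPA and 5.6 ± 0.534 TPM in controls, Dus3l, a tRNA-modifying enzyme (log2 fold change 0.86), Maoa, monoamine oxidase A (0.60), and Acads, an acyl-CoA dehydrogenase (0.57). Exons of Mical1 overlap Smpd2 on the other strand. With differentiation, control against 0 h, 12 of 65 tested flavoprotein genes rose, 16 fell and 37 did not pass, with a median of -0.38 against -0.22 for all genes. The 43.1% called stood near the 39.4% of all genes (15.1% higher, 24.3% lower).

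Of 15 transporter genes of other vitamins, 8 were tested in DTPA against control, and 2 rose, 1 fell and 5 did not pass (37.5% called, against 58.1% of all genes). Abcc1, an exporter with folates among its substrates, rose to 23 ± 0.615 TPM with DTPA, against 9.48 ± 0.397 TPM in controls (log2 fold change 1.19, limma adjusted p = 2.71e-06). Lmbrd1, which releases cobalamin from lysosomes, rose by 0.27 and the mitochondrial coenzyme A carrier gene Slc25a42 fell by 0.42 on the log2 scale. Of 9 transporters tested in control against 0 h, 1 rose, 5 fell and 3 did not pass (median log2 fold change -1.10, against -0.22 for all genes). Of all genes 39.4% were called there, 24.3% as lower. The falls, named after their values were seen, were in the folate carrier gene Slc19a1 (-4.62), the biotin and pantothenate carrier gene Slc5a6 (-1.95), the cobalamin receptor gene Cd320 (-1.93), the ascorbate carrier gene Slc23a2 (-1.65) and Slc25a42 (-1.10), whose call was lost with a pseudocount of 5 TPM (-0.80), median-of-ratios scaling (-0.95) and quantile normalization (-0.75). Slc19a1 had 0.39 ± 0.0529 TPM in controls (SD, n = 3) and 33.1 TPM at 0 h. The gene that rose was Lmbrd1 (1.47), with 43.8 ± 3.1 TPM in controls and 15.2 TPM at 0 h.

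Factors reported to act on Hemgn or to bind hemogen, listed together with reported downstream genes, went both ways with DTPA. Gata1 and Tal1 were among the falls. The counts cover the whole list, downstream genes included. Of 12 listed genes 10 were tested in DTPA against control, and 3 rose, 4 fell and 3 did not pass. The median of -0.08 was near that of all genes (-0.09), and 70% were called, against 58.1% of all genes, 21.7% higher and 36.4% lower. Reads of Gata1, which in this line can come from the introduced fusion gene, fell to 1305 ± 118 TPM with DTPA, against 3164 ± 93.1 TPM in controls, with 2969 TPM at 0 h (log2 fold change -1.28, limma adjusted p = 3.81e-06). Tal1, a partner of GATA1 on DNA, fell to 132 ± 2.3 against 237 ± 2.28 TPM, with 265 TPM at 0 h (-0.84). Ep300, encoding p300, fell to 38.8 ± 3.1 TPM with DTPA, against 54.7 ± 1.71 TPM in controls (-0.49). Ldb1 and Lmo2, bridging subunits of the TAL1 complex, rose by 0.61 and 0.18 on the log2 scale. The 3 that did not pass, named after their values were seen, were Klf1, Zfpm1 and Npm1. Their log2 fold changes were 0.05, -0.12 and -0.04 (limma adjusted p = 0.635, 0.285 and 0.645). Hoxb4 was at or near 0 and not tested.

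Bcl2l1, which encodes the survival protein BCL-XL and is reported to act downstream of hemogen, had 142 ± 4.35 TPM with DTPA and 154 ± 4.12 TPM in controls. Its call as lower (log2 fold change -0.12, limma adjusted p = 0.0325) turned direction with quantile normalization, and was lost with median-of-ratios scaling (adjusted p = 0.668), without globin genes (0.0909), with no variance trend (0.0749), with the replicate number as a block (adjusted p = 0.0739), without control replicate 1 (0.0911) or 2 (0.114) and without DTPA replicate 1 (0.0671) or 2 (0.0718). Rela, an NF-kappaB subunit, had 141 ± 8.21 TPM with DTPA and 127 ± 1.84 TPM in controls. Its call as higher (0.15, limma adjusted p = 0.0354) was lost with no filter on low values (0.0571), with no variance trend (0.074), with the block (0.0558), without any one control replicate (0.0959, 0.0652 and 0.0786 for replicates 1, 2 and 3) and without DTPA replicate 2 (0.0899) or 3 (0.12). Of this list 11 genes were tested in control against 0 h, and 2 rose, 3 fell and 6 did not pass (45.5% called, against 39.4% of all genes). Named after their values were seen, the rises were Zfpm1 (2.27) and Bcl2l1 (2.24). The falls were Npm1 (-2.45), Nfkb1 (-2.30) and Ldb1 (-1.16, or -0.998 with median-of-ratios scaling). The values of Gata1 and Tal1 there were 0.09 and -0.16, neither called.

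Erythroid maturation genes mostly rose with differentiation, where Hemgn was lower in controls than at 0 h. In control against 0 h, 23 of 36 tested genes rose, 3 fell and 10 did not pass, with a median log2 fold change of 1.19 where that of all genes was -0.22. The share called was 72.2%, against 39.4% of all genes, of which 15.1% were higher and 24.3% lower. The falls, named after their values were seen, were Rhag (-2.38), Tspo2 (-1.81) and Kel (-1.55). Rhag had 33.6 ± 1.21 TPM with DTPA, 51.7 ± 3.2 TPM in controls and 273 TPM at 0 h, the same group order as Hemgn. With DTPA against control Rhag fell (-0.61), Tspo2 did not pass (-0.20) and Kel rose (1.10). Of the whole list in DTPA against control, 9 rose, 21 fell and 6 did not pass, with a median of -0.27 against -0.09 for all genes. The share called was 83.3%, against 58.1% of all genes, of which 21.7% were higher and 36.4% lower. With median-of-ratios scaling 12 rose and 17 fell, and with quantile normalization 12 rose and 18 fell. The 4 largest falls were in genes of the red cell membrane and its skeleton. Slc4a1, the anion exchanger band 3, had 73 ± 2.81 TPM with DTPA and 770 ± 3.71 TPM in controls, with 45.6 TPM at 0 h, and Dmtn, dematin, had 19.8 ± 0.758 TPM with DTPA and 98.8 ± 1.95 TPM in controls, with 1.74 TPM at 0 h. Both were called higher in control against 0 h. Rhd, a blood group gene, had 1.16 ± 0.297 TPM with DTPA and 20 ± 1.92 TPM in controls, with 26.2 TPM at 0 h, and Tmod1, tropomodulin, had 1.1 ± 0.31 TPM with DTPA and 7.34 ± 0.645 TPM in controls, with 5.06 TPM at 0 h. Neither was called in control against 0 h, where Rhd gave -0.38 and Tmod1 0.46. Among the 9 rises with DTPA were the blood group gene Kel (log2 fold change 1.10), the ubiquitin ligase gene Ube2o (0.99), the adducin gene Add2 (0.68) and the adult globin gene Hbb-bt (2.12), whose reads may be split with its near-identical copy Hbb-bs. Hbb-bt varied widely, with 11076 ± 6124 TPM with DTPA and 2294 ± 688 TPM in controls. Of the other adult globin genes listed, Hbb-bs rose (0.48), and Hba-a1 and Hba-a2 fell (-0.33 and -1.13).

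**Figure D4:**
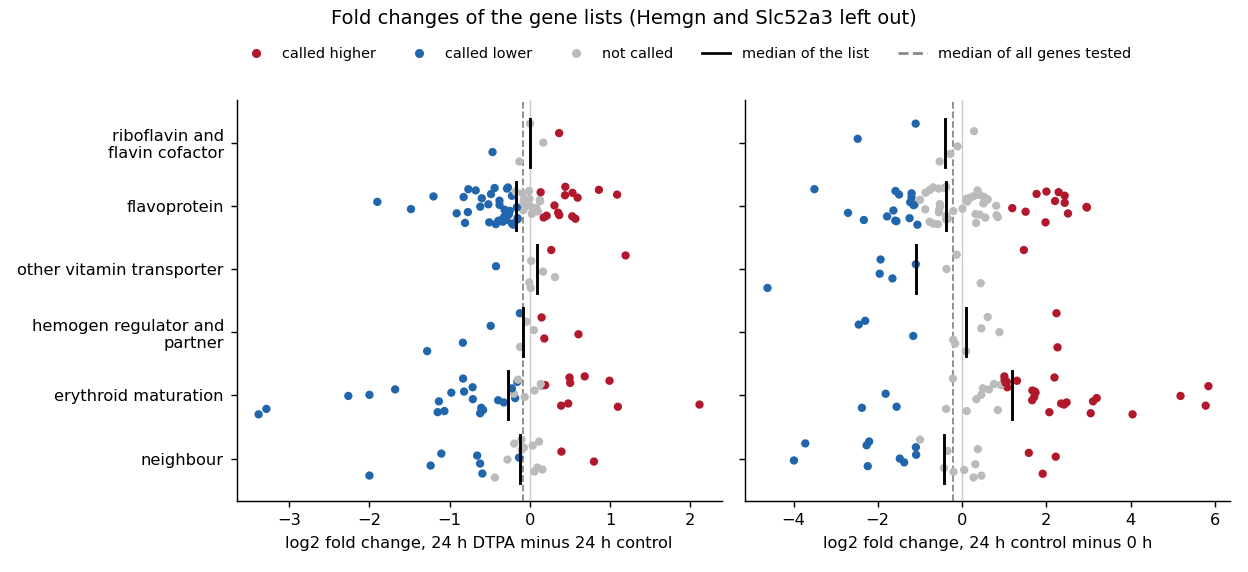
Log2 fold changes on the log2(TPM + 1) scale of the tested genes of each list, 1 point per gene, for 24 h DTPA minus 24 h control (left) and 24 h control minus 0 h (right); colours mark calls, black bars list medians and dashed lines the medians of all genes tested (-0.09 and -0.22). The erythroid maturation list lies to the right of the dashed line in control minus 0 h (median 1.19) and to its left in DTPA minus control (median -0.27).

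Genes near Hemgn and Slc52a3 on their chromosomes were also read, over all protein-coding genes starting within 500 kb. Starts here are those of the GENCODE gene spans, which for Hemgn is not the RefSeq start of the promoter window. Of 12 such genes around Hemgn 10 were tested in DTPA against control, and 1 rose, 4 fell and 5 did not pass. Directly beside Hemgn, Trmo, a tRNA methyltransferase gene whose start lies 24.1 kb away, had 14.6 ± 0.512 TPM with DTPA and 13.7 ± 1 TPM in controls and did not pass (log2 fold change 0.09, limma adjusted p = 0.29), although it did with quantile normalization (0.21, limma adjusted p = 0.028). On the other side Anp32b, a histone chaperone gene 37.4 kb away, fell to 94.5 ± 4.48 TPM with DTPA, against 224 ± 16 TPM in controls, and stood at 1059 TPM at 0 h (-1.24, limma adjusted p = 2.62e-06). Nans, which makes sialic acid, fell by 0.62, and Tmod1, 375 kb from Hemgn, fell by 2.00 on the log2 scale. Exons of Nans and Tmod1 overlap Trim14 and Tstd2 on the other strand.

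Around Slc52a3, 23 genes started within 500 kb and 10 were tested, of which 1 rose, 3 fell and 6 did not pass. Fam110a, directly beside it at 16.3 kb, was low at 24 h, with 1.49 ± 0.413 TPM with DTPA and 4.31 ± 0.462 TPM in controls (log2 fold change -1.10, limma adjusted p = 5.89e-04). At 0 h it stood higher, at 10.3 TPM. Scrt2, on the other side, was listed at 0 in all libraries. Psmf1, a proteasome inhibitor gene, fell by 0.66 and Srxn1, the peroxiredoxin-repairing sulfiredoxin gene, rose by 0.39 on the log2 scale. Over both neighbourhoods 45% of the 20 tested genes were called, 2 higher and 7 lower, against 58.1% of all genes.

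**Figure D5:**
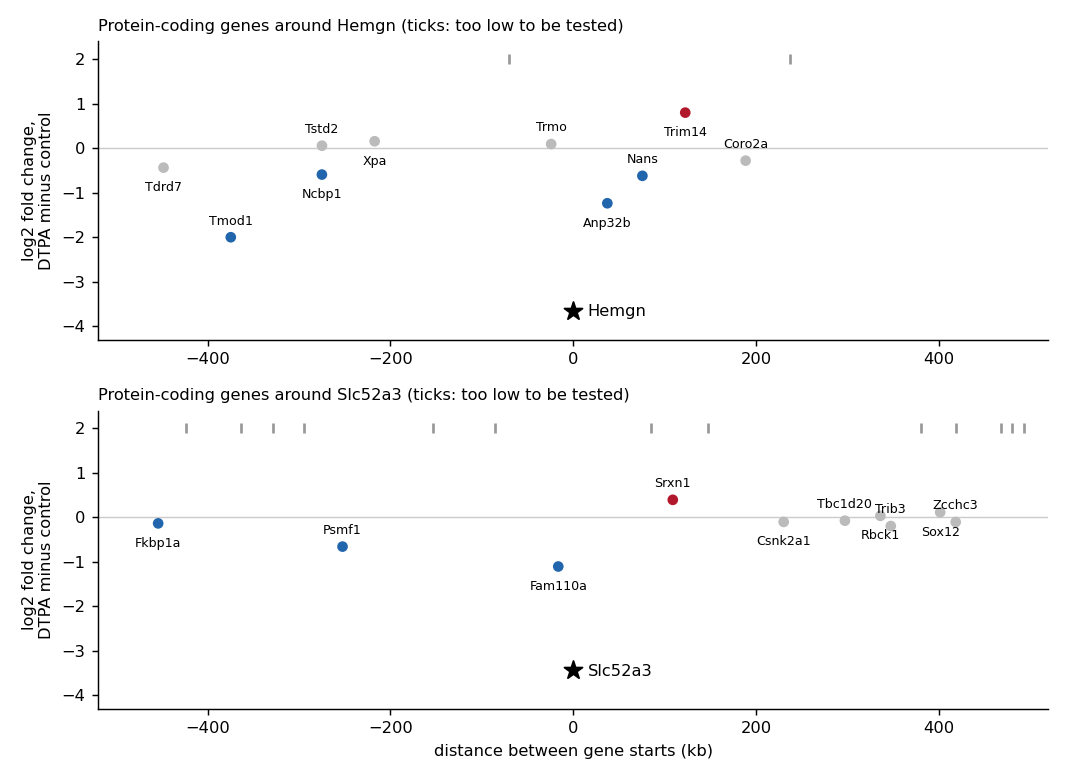
Log2 fold change of 24 h DTPA minus 24 h control against the distance between gene starts (kb) for the protein-coding genes within 500 kb of Hemgn (top) and Slc52a3 (bottom); red points were called higher, blue points called lower, grey points not called, and ticks mark genes too low to be tested. The stars mark Hemgn (-3.65) and Slc52a3 (-3.44), which were chosen for this difference and carry no test. They lie below every neighbour, of which the lowest is Tmod1 at -2.00.

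The balance of calls depended on the scaling of the libraries. In DTPA against control, 2415 genes were called higher and 4059 lower from TPM as deposited, and 37.3% of the calls were higher, against 48.4% with median-of-ratios scaling (3078 higher, 3288 lower) and 50.6% with quantile normalization (3192 and 3111). The share in control against 0 h was 38.3% (1794 and 2894) from TPM as deposited, 45.9% with median-of-ratios scaling and 48.6% with quantile normalization, where the median of all genes moved to -0.06 and -0.01 from -0.22. The log2 difference of Hemgn in DTPA minus control was -3.58 and -3.61 under these 2 scalings, and that of Slc52a3 was -3.36 under both.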

How the data were processed

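RNA was sequenced in 7 libraries made with a stranded TruSeq mRNA kit, per the labels' protocols. The submitters' processing notes name Trimmomatic 0.33, FastQC, HISAT2 2.1.0, featureCounts and edgeR with the build mm10. The sources used here do not give the annotation release, gene lengths, strand setting or handling of multiply mapped reads. TPM are what the authors deposited, with 2 decimals. TPM is relative, so rising abundant genes lower the others.

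Repeated symbols were summed. Reads were estimated from TPM and GENCODE M21 exon lengths, and 99.0% to 99.4% of the low values checked lay within 0.1 of a whole read. limma 3.58.1 (R 4.3.3, eBayes with trend, two-sided, Benjamini-Hochberg adjustment over all genes, threshold 0.05) was run on log2(TPM + 1). DTPA against control used the 6 libraries at 24 h and genes of at least 1 TPM in 3 of them. Control against 0 h used all 7 libraries in 3 groups and genes averaging at least 1 TPM in either, assumed that the lone 0 h library varies like the others, and also needed a log2 fold change of at least 1 in size. The fits were tested on simulated data.

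Of the genes written in the lists, all but Ahsp matched a row, Ero1a and Ero1b through older symbols. Named genes were the riboflavin list, up to 4 called genes per list and direction with the largest change (at least 5 TPM), the 8 genes most like each of the pair, and direct neighbours; 2 of these genes are not reported here. The 2 genes and the lists were chosen with earlier results of these data known. Other pseudocounts, filters, scalings, a fit without trend, with all 7 libraries, with a replicate block, and without each library were tried. Replicates of a group differed by more than counting noise (chi-square statistic averaging 2.99 to 9.16 over genes in pairs).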

Additional observations from a re-analysis of the deposited data

How the results depend on the processing

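The log2 differences of Hemgn and Slc52a3 in DTPA minus control kept their sign under all alternatives run. They were -4.21 and -3.83 with a pseudocount of 0.1 TPM, -2.49 and -2.49 with one of 5 TPM, and ranged from -3.73 to -3.55 and from -3.47 to -3.38 when 1 library was left out. Hemgn in control minus 0 h was -1.88 with median-of-ratios scaling. These shifts with the pseudocount follow from its construction, and the cause of the others was not tested.

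Counts of calls in the short lists moved by a few genes. In DTPA against control the riboflavin list had 0 higher with a filter of 5 TPM, 2 with median-of-ratios scaling, 2 with quantile normalization and 0 to 1 without 1 library. Other vitamin transporters had 4 higher with quantile normalization. Neighbours had 1 higher with a filter of 5 TPM, 4 with median-of-ratios scaling and 5 with quantile normalization. A window of 250 kb gave 2 higher and 3 lower of 9 tested genes, and one of 1000 kb gave 5 higher and 11 lower of 29. Of all genes tested, 21.7% were higher and 36.4% lower. In control against 0 h the riboflavin list had 1 lower with a pseudocount of 5 TPM, a filter of 5 TPM or quantile normalization, and other vitamin transporters had 3 lower with a pseudocount of 5 TPM. Neighbours there had 1 higher and 4 lower within 250 kb and 6 higher within 1000 kb, of 9 and 30 tested genes. Within 500 kb they had 3 higher and 9 lower of 21 tested genes, and 9 were also lower within 1000 kb. Of all genes tested in control against 0 h, 15.1% were higher and 24.3% lower.

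Sign changes in named genes were small. Abcg2 in DTPA minus control ranged from -0.041 to 0.055 without 1 library, and Bcl2l1 was 0.0464 with quantile normalization. In control minus 0 h, median-of-ratios scaling and quantile normalization gave Flad1 0.0473 and 0.115, and Abcc1 0.0174 and 0.202. Same-numbered libraries did not deviate together (correlations of -0.0103, 0.0242 and -0.00964), so the replicate numbers are not read as pairs. With the replicate block, 2274 genes were higher and 3888 lower, and the differences of Hemgn and Slc52a3 stayed at -3.65 and -3.44.

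Depth limits the DTPA values of both genes to 24 to 52 reads a library, and the 0 h value has no replicate.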
